A study of Mus musculus with 14 samples.

Results

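The H3K27me3 peaks of mouse chromosome 5 that lie between 0.1 and 10 Mb from a deletion at Hmx1 were compared between mouse embryonic stem cells (mESCs) with that deletion and mESCs with a deletion elsewhere. The deleted stretch was taken as 35382872 to 35401827 (mm10), a run of 11 peaks over 18.955 kb around Hmx1 in which the Hmx1 deletion libraries kept 0.332% and 0.206% of the level of the other libraries. Peaks reaching 0.1 Mb or closer to this stretch were left out, and peaks were kept out to 10 Mb on either side. These positions chose 766 of the 74458 peaks of the deposited table, 472 on the side of lower coordinates and 294 on the side of higher coordinates. A filter on low counts passed 765 of them. The remaining peak, inside Babam2 (31988844 to 31989172), held 0 to 0.470 CPM (counts scaled to the size of each library) in the 7 libraries.

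The cells were CRISPR-Cas9 edited mESCs grown with leukaemia inhibitory factor on CD1 feeder cells, and every group carried a deletion. The Hmx1 deletion had 2 H3K27me3 libraries, the Hoxa deletion 3 and the Wnt6 deletion 2. No column held unedited cells, so the Hmx1 deletion was set against the mean of the Hoxa and Wnt6 deletions, whose deleted sites lie on other chromosomes. Clones are not named in the labels, while the study mentions deletion clones, so a deletion and its clone cannot be told apart, and p-values measure the spread between these libraries. Totals over the peaks ran from 6016500 to 36563541 counts, lowest in Hmx1 deletion replicate 1. The peaks around Hmx1 took 1.34 to 1.37% of the counts in each of the 7 libraries. Pearson correlations of log2 CPM over these peaks were 0.9645 to 0.9781 between libraries of the same deletion (5 pairs) and 0.943 to 0.9863 between libraries of different deletions (16 pairs). H3K27me3 was low over pluripotency genes and high over genes of later lineages, as a median summed level of 3.20 CPM over 8 pluripotency genes and of 286 CPM over 8 lineage genes shows. Per kb of gene length the medians were 0.459 and 33.3 CPM. The highest summed level of a pluripotency gene was 239 CPM at Esrrb, a long gene with 1.49 CPM per kb, and the highest per kb was 6.30 CPM at Klf4, above the 2.89 CPM per kb of the lineage gene Pax3.

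H3K27me3, a trimethylated lysine on histone H3, is laid down by the Polycomb complex PRC2 at developmental genes that are silent. PRC2 settles first at CpG-rich promoters, and the mark then spreads along the chromatin and can join distant Polycomb targets in loops. Cut&Tag maps it by directing a transposase to an antibody on the chromatin. The region around Hmx1, a homeobox gene of the developing eye, ear and cranial ganglia, holds several such targets, and the study placed Nkx1-1 and Msx1 in a loop complex with Hmx1. The comparison asks whether removing the Hmx1 anchor moved the mark at these partners or anywhere else along the surrounding sequence. In cell populations, fewer alleles with the mark and less mark on each allele cannot be told apart.

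The promoters of the genes the comparison turns on are shown as the 250 bases before the RefSeq start (GRCm38.p6), 5′ to 3′ on the strand of the gene, with every CG in capitals, since CpG-rich promoters are where PRC2 settles. Adra2c (chr5:35278316-35278565, plus strand) and Cpz (chr5:35525627-35525876, minus strand) are the genes at the inner edge of the region on the lower and higher side, Nkx1-1 (chr5:33434091-33434340, minus strand) and Msx1 (chr5:37824586-37824835, minus strand) are the loop partners, Nkx3-2 (chr5:41764221-41764470, minus strand) is a homeobox gene farther out, and Htt (chr5:34761490-34761739, plus strand) is a broadly expressed gene.
Adra2c: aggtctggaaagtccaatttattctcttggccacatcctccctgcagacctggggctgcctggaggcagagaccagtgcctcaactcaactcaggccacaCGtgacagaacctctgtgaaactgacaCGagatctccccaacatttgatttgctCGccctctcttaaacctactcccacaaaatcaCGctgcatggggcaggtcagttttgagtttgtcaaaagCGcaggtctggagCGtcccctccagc
Nkx1-1: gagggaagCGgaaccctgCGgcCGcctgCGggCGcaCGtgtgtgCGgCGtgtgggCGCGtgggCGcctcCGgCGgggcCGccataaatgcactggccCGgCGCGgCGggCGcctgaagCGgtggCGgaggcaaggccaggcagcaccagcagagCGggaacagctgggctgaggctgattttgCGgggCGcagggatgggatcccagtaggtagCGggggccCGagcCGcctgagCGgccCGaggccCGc
Msx1: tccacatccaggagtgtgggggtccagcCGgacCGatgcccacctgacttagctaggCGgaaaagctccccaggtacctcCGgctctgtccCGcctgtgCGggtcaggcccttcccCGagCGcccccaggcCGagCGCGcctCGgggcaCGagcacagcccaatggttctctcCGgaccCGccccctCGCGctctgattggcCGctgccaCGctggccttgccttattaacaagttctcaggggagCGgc
Nkx3-2: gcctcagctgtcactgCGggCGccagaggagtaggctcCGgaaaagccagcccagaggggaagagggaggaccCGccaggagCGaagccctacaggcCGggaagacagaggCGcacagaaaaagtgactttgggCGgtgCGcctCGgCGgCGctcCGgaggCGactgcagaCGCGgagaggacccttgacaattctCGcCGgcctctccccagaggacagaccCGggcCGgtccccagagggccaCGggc
Cpz: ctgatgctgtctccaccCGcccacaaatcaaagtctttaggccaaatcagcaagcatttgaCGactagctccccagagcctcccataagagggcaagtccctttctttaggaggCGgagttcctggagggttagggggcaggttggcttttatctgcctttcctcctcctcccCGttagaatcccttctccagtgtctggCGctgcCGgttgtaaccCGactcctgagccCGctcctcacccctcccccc
Htt: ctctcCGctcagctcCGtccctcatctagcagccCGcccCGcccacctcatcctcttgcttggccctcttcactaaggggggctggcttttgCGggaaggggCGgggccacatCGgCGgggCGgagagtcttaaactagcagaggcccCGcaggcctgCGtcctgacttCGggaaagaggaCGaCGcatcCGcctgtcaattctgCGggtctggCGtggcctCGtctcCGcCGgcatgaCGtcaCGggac

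The Nkx1-1 stretch held 30 CG and that of Msx1 20, more than in 94.1% and 82.1% of the 32851 mouse promoters in the RefSeq table. Nkx3-2 held 21 and Htt 22, whereas Adra2c held 6 and Cpz 8. CG content and H3K27me3 level did not go together across these examples. The peak over the Htt promoter averaged 12.6 CPM and that over the Msx1 promoter 142 CPM at nearly the same number of CG, and the strongest peak of the whole region covered the Adra2c promoter at 406 CPM. CG, which reads the same on both strands, was counted in 191 promoters of 165 of the 184 protein-coding genes of the region. The RefSeq table lacked promoters of some strongly marked genes, among them En2 and Shh, so the shares below leave these out. Among 132 promoters that a peak overlapped, 81.8% held 10 or more CG, against 15.3% of the 59 that none overlapped and 37.8% of all mouse promoters in the table. Within the promoters under a peak this share was 82.9% where the peak was one of the 255 strongest of the region by mean CPM and 80% where it was weaker. A count of CG describes these windows and says nothing of what binds them.

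The level of H3K27me3 around Hmx1 differed widely between peaks. Tested peaks were ranked by mean CPM into 3 equal groups of 255, called strong, intermediate and weak here. The strong group, with a median of 22.4 CPM, held 88.6% of the CPM of the region. The median peak had 3.97 CPM over 484 bp, close to the median of 3.81 CPM over all tested peaks. A peak overlapped or lay within 5 kb of 161 of the 184 protein-coding genes. Promoter windows were overlapped by 126 of the tested peaks (16.5%, against 15.2% of all peaks) and genes by 405 (52.9%, against 53.1%).

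The CPM summed over the peaks of a gene was highest at Nkx1-1 (492 CPM), followed by Shh (451 CPM), Kcnk3 (431 CPM), Fgfr3 (416 CPM), En2 (411 CPM), Adra2c (406 CPM) and Msx1 (375 CPM). These genes, chosen here for their level, include homeobox regulators, the Sonic hedgehog ligand, an FGF receptor, a potassium leak channel and an adrenergic receptor. Single strong peaks covered Adra2c (35276536 to 35281484), Nat8l (33994505 to 33998886, 333 CPM), an enzyme gene of neuronal N-acetylaspartate synthesis, and Ucn together with Trim54 (31136013 to 31139302, 227 CPM). Most of the mark lay on the lower side, where 471 tested peaks held 66.5% of the CPM of the region. The class from 0.5 to 2 Mb on that side, which holds Nkx1-1, Fgfr3 and Nat8l, held 24.3% in 118 peaks. Its median level of 11.9 CPM stood above those of the other 7 classes of distance and side, which ran from 2.80 to 4.27 CPM.

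**Figure D1:**
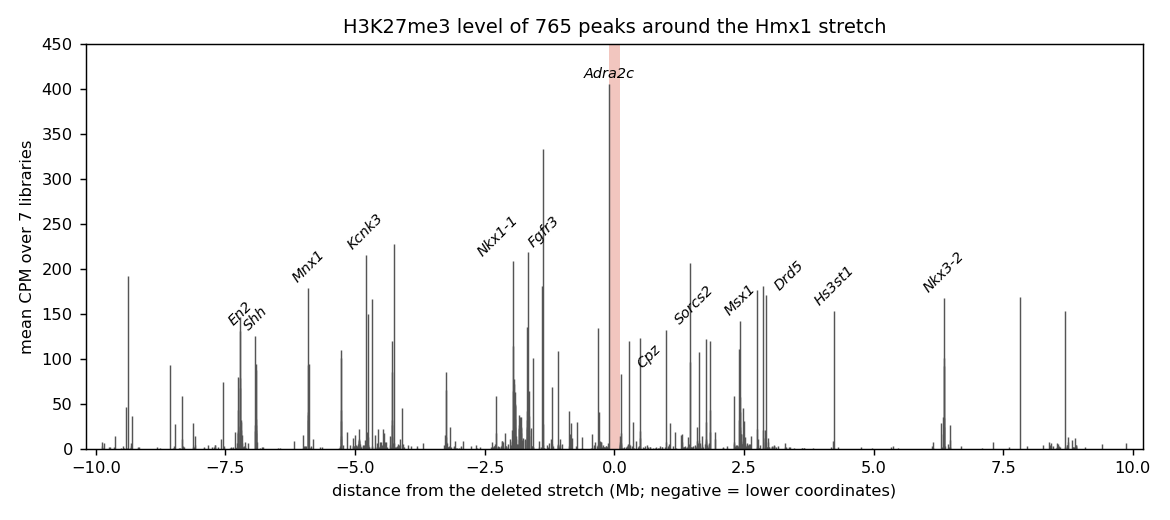
Mean level of each tested peak (vertical lines, CPM over the 7 libraries) against its distance from the deleted stretch in Mb, with lower coordinates to the left and the excluded 0.1 Mb on each side shaded. The highest line is Adra2c at 406 CPM, just outside the excluded part, and named genes stand at 83.5 CPM (Cpz) or more among many low peaks.

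None of the 765 tested peaks was called as changed in the Hmx1 deletion. A change was called at a log2 fold change beyond 1 in either direction with a Benjamini-Hochberg adjusted p under 0.05, taken over all tested peaks of the genome, by edgeR's quasi-likelihood test with a term for each genotype. Across the genome 0.293% of peaks were called, 0.278% outside the deleted stretch. With no fold minimum, 0 peaks of the region passed in this fit either, where 1.65% of all peaks did. An unadjusted p under 0.05 was found at 60 peaks of the region (7.84%, against 12% of all peaks), 20 higher (5.58% of all peaks) and 40 lower (6.44% of all peaks) in the Hmx1 deletion. DESeq2 called 0 as well, with an unadjusted p under 0.05 at 33 and no adjusted p for 446 low peaks. Its smallest adjusted p was 0.0512 and that of edgeR 0.0747.

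The differences were also small in size. The median log2 fold change, Hmx1 deletion minus the mean of the other deletions, was 0.019 over the region and 0.0009 over all tested peaks. The middle 50% of values lay between -0.15 and 0.15, and the extremes were -1.35 and 0.95. The 95% interval of the fold change stayed within -1 and 1 for 614 peaks (80.3%, against 77.6% of all peaks), so that for these a doubling or halving lay outside the interval. This held for all 255 peaks of the strong group, for 239 of the intermediate and for 120 of the weak group. At the remaining peaks, most of them in the weak group with its median level of 1.66 CPM, a 2-fold change lay inside the interval and was not excluded. Both Hmx1 deletion libraries lay above all 5 others at 54 peaks (7.06%, against 6.94% of all peaks) and below all 5 at 53 (6.93%, against 8.01%).

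Calls stopped well inside the inner edge of the region. Of the 29 peaks within 0.1 Mb of the stretch 7 were called, all lower, at a median log2 fold change of -0.36 over the 29. The called peak farthest from the stretch lay 20.6 kb away on the lower side (35361922 to 35362311, log2 fold change -1.10, adjusted p = 0.000616) and 4.67 kb away on the higher side (35406496 to 35406853, -1.35, adjusted p = 3.37e-06). Around the boundary itself, the last excluded peak on the lower side (35282082 to 35282953, 99.9 kb away) had a log2 fold change of 0.15, and the first included peak 0.18. On the higher side the last excluded peak (35495101 to 35495501, 93.3 kb away) had 0.17 and the first included peak (35503487 to 35503740, 102 kb away) -0.22. Farther out, 13 of the 3830 peaks of chromosome 5 beyond 10 Mb were called, 5 higher and 8 lower, as were 187 of the 69806 tested peaks on other chromosomes.

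**Figure D2:**
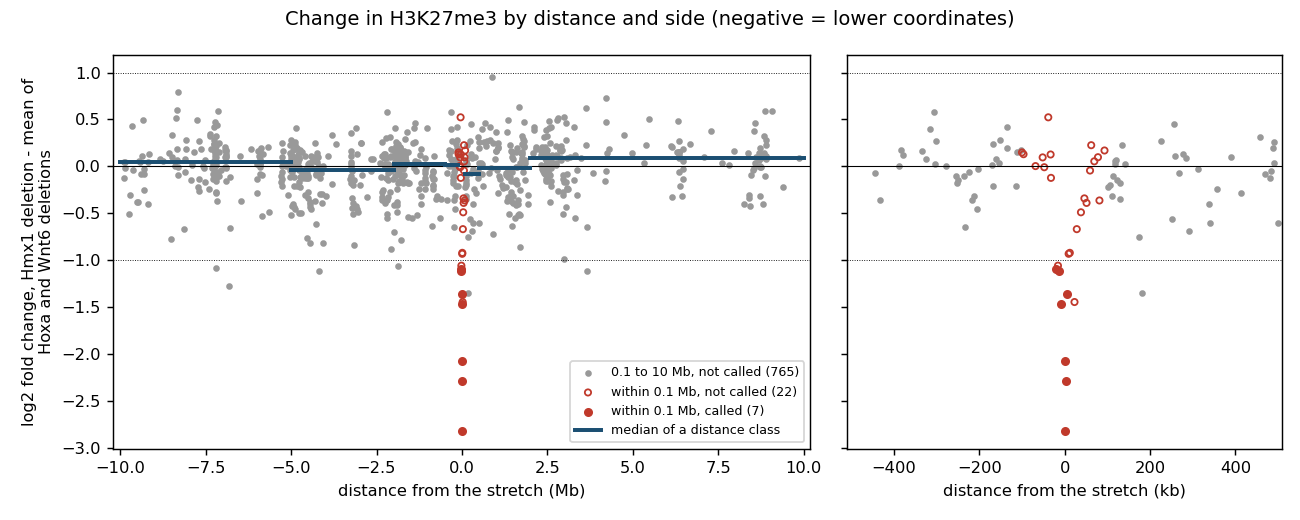
Log2 fold change of each tested peak, Hmx1 deletion minus the mean of the Hoxa and Wnt6 deletions, against distance from the stretch in Mb (left) and, for the nearest part, in kb (right), with medians of the distance classes as bars and dotted lines at -1 and 1. The 7 called peaks (filled red) lie within 20.6 kb of the stretch, and the bars of the 8 classes beyond 0.1 Mb lie between -0.076 and 0.095.

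Medians by distance stayed within 0.1 of 0 on both sides. On the lower side the median log2 fold change was 0.014 from 0.1 to 0.5 Mb (33 peaks), 0.022 from 0.5 to 2 Mb (118 peaks), -0.034 from 2 to 5 Mb (166 peaks) and 0.044 from 5 to 10 Mb (154 peaks). On the higher side it was -0.076 (36 peaks), -0.016 (90 peaks), 0.089 (109 peaks) and 0.095 (59 peaks) over the same distances. On the lower side the classes followed no order of distance, and on the higher side the nearest class was the lowest and the farthest the highest, an order that was not tested. Medians over whole sides were 0.0056 for the lower and 0.042 for the higher. Single libraries differed in how far they followed these medians. From 5 to 10 Mb on the higher side the median deviations of both Hmx1 deletion libraries, 0.084 and 0.093, lay above those of all 5 other libraries, which ran from -0.073 to 0.042. From 0.1 to 0.5 Mb on the higher side the median deviation from the mean of the other deletions was 0.05 in Hmx1 deletion replicate 1 and -0.14 in replicate 2. From 2 to 5 Mb on the lower side these values were 0.045 and -0.064, so that the 2 Hmx1 deletion libraries fell on opposite sides of 0 in both classes. They did so too from 0.5 to 2 Mb, at -0.012 and 0.032 on the lower side and -0.047 and 0.043 on the higher side. Without Hmx1 deletion replicate 2 the nearest class on the higher side had a median of 0.055, above 0.

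The 2 comparison deletions differed from each other by more than the Hmx1 deletion did from their mean in 5 of the 8 classes. From 0.1 to 0.5 Mb on the lower side, the median of the Hoxa deletion minus the Wnt6 deletion was -0.20, with the 3 Hoxa deletion libraries at -0.15, -0.076 and -0.13 and the 2 Wnt6 deletion libraries at 0.13 and 0.16. The Hmx1 deletion libraries lay between them at 0.08 and 0.037. From 2 to 5 Mb on the higher side that difference was also -0.20, and the Hmx1 deletion libraries, at 0.065 and 0.085, lay below both Wnt6 deletion libraries, at 0.093 and 0.12, and above the Hoxa deletion libraries. The side medians followed the choice of comparison. Against the Hoxa deletion alone they were -0.0087 on the lower and 0.096 on the higher side, and against the Wnt6 deletion alone 0.024 and -0.032.

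**Figure D3:**
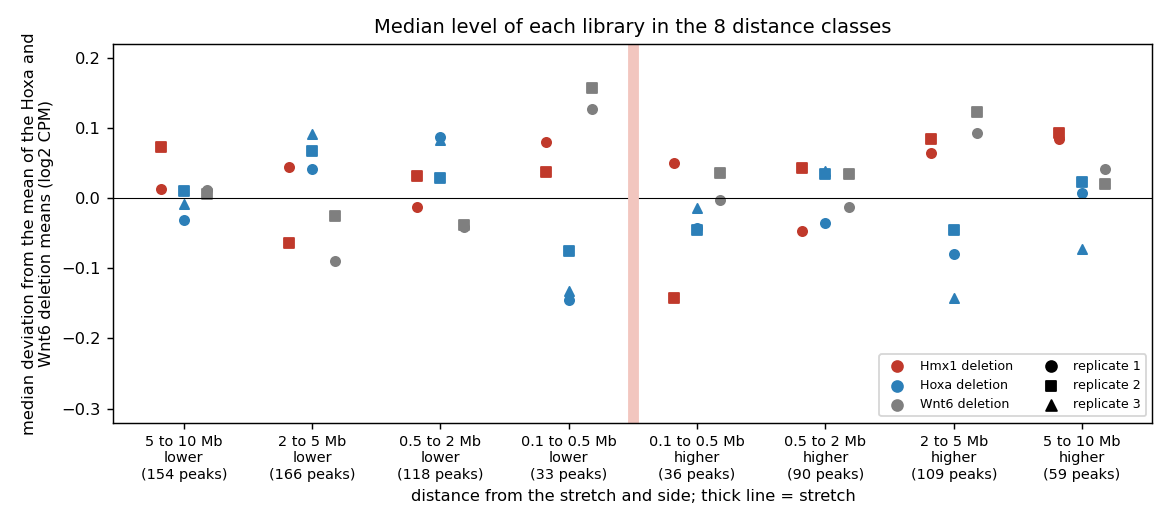
Median deviation of each library (log2 CPM) from the mean of the Hoxa and Wnt6 deletion means, in the 8 classes of distance and side, ordered along the chromosome with the stretch between the middle classes. The 2 Hmx1 deletion libraries (red) lie between -0.14 and 0.093, within the range that the Hoxa (blue) and Wnt6 (grey) deletion libraries span over all classes, -0.15 to 0.16. Within a class they can lie outside the others. For example, from 0.1 to 0.5 Mb on the higher side replicate 1 is above and replicate 2 below all others, and from 5 to 10 Mb there both are above.

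The genes at the inner edge of the region kept their H3K27me3. Adra2c, which encodes the alpha-2C adrenergic receptor, lies under the strongest peak, which ends 101 kb from the stretch. It held 439 and 444 CPM in the Hmx1 deletion, 415, 371 and 403 CPM in the Hoxa deletion, and 407 and 362 CPM in the Wnt6 deletion. Both Hmx1 deletion libraries were the highest, by a margin smaller than the range of the others. The log2 fold change was 0.18 (95% interval 0.028 to 0.33, edgeR adjusted p = 0.293). On the other side Cpz, encoding a carboxypeptidase with a Wnt-binding domain, had its strongest peak at 35523942 to 35526083, 122 kb from the stretch. It held 75.9 and 78.9 CPM in the Hmx1 deletion, 85.3, 86.7 and 83.7 CPM in the Hoxa deletion, and 94.3 and 80.0 CPM in the Wnt6 deletion. Here both Hmx1 deletion libraries were the lowest, and the log2 fold change was -0.15 (95% interval -0.33 to 0.033, edgeR adjusted p = 0.547).

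From 0.1 to 0.5 Mb on the higher side, both Hmx1 deletion libraries lay below all 5 others at 6 of 36 peaks (16.7%, against 8.01% of all peaks), and none of these was called. This share was the highest of the 8 classes, and at the same distance on the lower side it was 0 of 33 peaks. Peaks at Cpz, Trmt44 and Acox3 were among the 6, named here after their values were seen. The peak over the start of Acox3 (35582990 to 35583292), a peroxisomal oxidase gene 181 kb from the stretch, had the most negative fold change of the region. It held 0.507 and 0.866 CPM in the Hmx1 deletion, 1.65, 1.99 and 1.74 CPM in the Hoxa deletion, and 2.06 and 2.19 CPM in the Wnt6 deletion. The groups did not overlap, the log2 fold change was -1.35 (95% interval -2.17 to -0.53), and the edgeR adjusted p was 0.0794. In the same class Afap1, which encodes an actin filament associated protein, had the second smallest unadjusted p, with a log2 fold change of 0.26 (95% interval 0.081 to 0.44, adjusted p = 0.144). Its peak (35892993 to 35894798) held 158 and 123 CPM in the Hmx1 deletion, 123, 109 and 116 CPM in the Hoxa deletion, and 127 and 107 CPM in the Wnt6 deletion, so the groups overlapped.

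The loop partners of Hmx1 kept the mark as well. Within 10 kb of Nkx1-1, a homeobox gene 1.95 Mb from the stretch, and of Msx1, a homeobox gene of craniofacial and tooth development 2.42 Mb away on the other side, 17 peaks were tested and 0 called. Their log2 fold changes ran from -0.11 to 0.41 with a median of 0.099, against 0.061 over the strong group of the region. The median was 0.08 over the 8 peaks at Nkx1-1 and 0.11 over the 9 at Msx1. An unadjusted p under 0.05 was found at 3 of the 17, each higher in the Hmx1 deletion, where 5.58% of all peaks had such a p in that direction. Among peaks on other chromosomes above 7.99 CPM, the lower bound of the strong group, it was 1863 of 19382. The 95% interval stayed within -1 and 1 at all 17 peaks.

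The strongest peak at Nkx1-1 (33427942 to 33431479) held 205 and 223 CPM in the Hmx1 deletion, 210.3, 209.7 and 211 CPM in the Hoxa deletion, and 205 and 196 CPM in the Wnt6 deletion. The peak over its promoter (33433543 to 33434801) held 109 and 116 CPM, then 125, 113 and 120 CPM, then 111 and 104 CPM in the same order. At the strongest peak Hmx1 deletion replicate 2 lay above all other libraries and replicate 1 inside their range. At the promoter peak both lay inside the range of the others, so the groups overlapped at both peaks. The log2 fold changes were 0.061 (95% interval -0.096 to 0.22) and -0.0062 (95% interval -0.18 to 0.16). The promoter peak of Msx1 (37823457 to 37824885) held 163 and 145 CPM in the Hmx1 deletion, 162, 127 and 143 CPM in the Hoxa deletion, and 131 and 123 CPM in the Wnt6 deletion. Its groups overlapped too, and the log2 fold change was 0.18 (95% interval 0.012 to 0.36, edgeR adjusted p = 0.371).

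Smaller peaks beside the partner genes varied more. A peak 3.90 kb from Nkx1-1 (33426511 to 33426833) held 20.8 and 16.8 CPM in the Hmx1 deletion, 13.8, 13.8 and 12.1 CPM in the Hoxa deletion, and 11.9 and 15.9 CPM in the Wnt6 deletion. Another, 5.75 kb from Msx1 (37814148 to 37814742), held 40.9 and 34.7 CPM, then 29.2, 26.4 and 27.6 CPM, then 32.4 and 33.0 CPM. In both the Hmx1 deletion libraries were the highest, at log2 fold changes of 0.41 (adjusted p = 0.141) and 0.31 (adjusted p = 0.160) by edgeR.

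**Figure D4:**
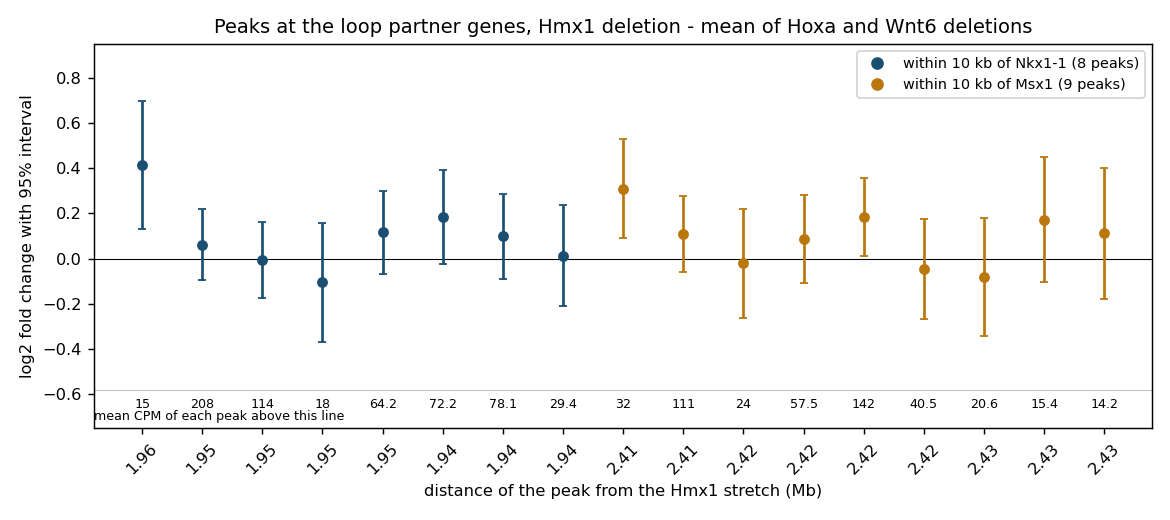
Log2 fold change of the 17 peaks within 10 kb of Nkx1-1 (blue) or Msx1 (ochre), with 95% intervals, labelled on the x axis by distance from the stretch in Mb and above the lower margin by mean CPM. The points lie between -0.11 and 0.41, and the peaks above 100 CPM lie at 0.18 or less.

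The list of homeobox genes of the region, which includes both loop partners, gave the same picture. The list of En2, Mnx1, Nkx1-1, Msx1 and Nkx3-2 had 26 peaks, of which 0 were called. At an unadjusted p under 0.05, 2 were higher (5.58% of all peaks) and 0 lower (6.44% of all peaks). These 2 belong to Nkx1-1 and Msx1 and are among the partner peaks already counted, and En2, Mnx1 and Nkx3-2 had 0. The median log2 fold change over the 26 was 0.086. Nkx3-2, a regulator of the jaw joint and axial skeleton 6.36 Mb from the stretch, had a promoter peak (41763107 to 41764729) of 174 and 181 CPM in the Hmx1 deletion, 170, 165 and 157 CPM in the Hoxa deletion, and 177 and 151 CPM in the Wnt6 deletion. En2, which patterns the midbrain and hindbrain, had 137 and 139 CPM in the Hmx1 deletion, 135, 119 and 137 CPM in the Hoxa deletion, and 128 and 123 CPM in the Wnt6 deletion at 28165432 to 28167417, 7.22 Mb away. The groups overlapped at Nkx3-2 and not at En2, where the gap between the nearest libraries was under 1 CPM, and the log2 fold changes were 0.12 and 0.11. Mnx1, a motor neuron and pancreas regulator, averaged 178.9 ± 1.63 CPM (SD, n = 2) at 29477345 to 29479451 when Hmx1 was deleted. With Hoxa or Wnt6 deleted the means were 186 ± 14.1 CPM (SD, n = 3) and 168 ± 11.1 CPM (SD, n = 2). Its log2 fold change of 0.021 and that of the strongest Nkx1-1 peak turned to -0.069 and -0.041 with offsets that follow abundance. All 5 strongest peaks of the list had 95% intervals within -0.14 and 0.36.

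Signalling genes showed no called peak either. Of 9 genes on the list 7 had a peak, with 34 peaks in all and a median log2 fold change of 0.042. At an unadjusted p under 0.05, 1 peak was higher and 2 were lower, where 5.58% and 6.44% of all peaks were. Shh, the ligand that patterns limb and neural tube, had 140 and 132 CPM in the Hmx1 deletion at 28457884 to 28459233. The Hoxa deletion had 123, 118 and 132 CPM there and the Wnt6 deletion 125 and 111 CPM. The Hmx1 deletion libraries were the highest, by less than 1 CPM over the next, and the log2 fold change was 0.17 (95% interval 0.0036 to 0.34, edgeR adjusted p = 0.401). Fgfr3, an FGF receptor that restrains growth of cartilage, had 228 and 236 CPM in the Hmx1 deletion, 222, 203 and 208 CPM in the Hoxa deletion, and 226.5 and 206 CPM in the Wnt6 deletion at 33720717 to 33723381. Its log2 fold change was 0.12 (95% interval -0.037 to 0.28, adjusted p = 0.588). Hs3st1, which encodes a heparan sulfate sulfotransferase, had overlapping groups at 39643021 to 39645443 and a log2 fold change of 0.15 (95% interval -0.019 to 0.31).

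The peak at Evc and its neighbour Evc2, ciliary genes of hedgehog signalling, was among the weaker ones. At 37336396 to 37337191 it held 15.7 and 14.8 CPM in the Hmx1 deletion, 18.3, 20.1 and 24.6 CPM in the Hoxa deletion, and 18.4 and 15.2 CPM in the Wnt6 deletion. The Hmx1 deletion overlapped the Wnt6 deletion and lay below the Hoxa deletion. The log2 fold change was -0.30 (95% interval -0.58 to -0.025, edgeR adjusted p = 0.358). Spon2, a secreted matrix protein gene, stood lower still, with a mean of 8.86 CPM over the 7 libraries and a log2 fold change of -0.071. No peak overlapped or lay within 5 kb of Fgfbp1 and C1qtnf7.

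Neuronal genes made up the longest list, 15 genes with 118 peaks, of which 0 were called. An unadjusted p under 0.05 was found at 5 peaks in the higher direction (5.58% of all peaks) and 6 in the lower (6.44% of all peaks). The median log2 fold change was 0.064. Their strongest peaks ranged from 4.99 CPM at Ldb2 to 406 CPM at Adra2c. Kcnk3, a potassium leak channel gene, had 215 and 213 CPM in the Hmx1 deletion, 230, 212 and 220.4 CPM in the Hoxa deletion, and 224 and 197 CPM in the Wnt6 deletion at 30586689 to 30590288. This was one of the closest matches of the list, with a log2 fold change of -0.0082 (95% interval -0.17 to 0.15). Drd5, a dopamine receptor gene, had 184 and 185 CPM in the Hmx1 deletion at 38318107 to 38320859, above the 172, 162 and 169.9 CPM of the Hoxa deletion and the 163 and 157 CPM of the Wnt6 deletion. The groups did not overlap, with a log2 fold change of 0.17 (95% interval 0.014 to 0.33, edgeR adjusted p = 0.357).

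Rgs12, which encodes a regulator of G protein signalling 433 kb from the stretch, differed between the comparison deletions. Its peak at 34948906 to 34950114 held 14.0 and 13.7 CPM in the Hmx1 deletion, 15.0, 16.3 and 12.1 CPM in the Hoxa deletion, and 23.7 and 19.7 CPM in the Wnt6 deletion. The log2 fold change was -0.35 against the mean of both (adjusted p = 0.266), -0.077 against the Hoxa deletion alone and -0.63 against the Wnt6 deletion alone. The Hoxa and Wnt6 deletions differed by -0.56 with an edgeR adjusted p of 0.0102. The other strongest peaks of the list, at Htr5a, Dpp6, Sorcs2, Dpysl5, Jakmip1, Crmp1, Stk32b, Slc30a3, Otof, Ldb2 and Wfs1, had log2 fold changes between -0.22 and 0.16. The peak taken for Otof overlaps Fam166c.

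**Figure D5:**
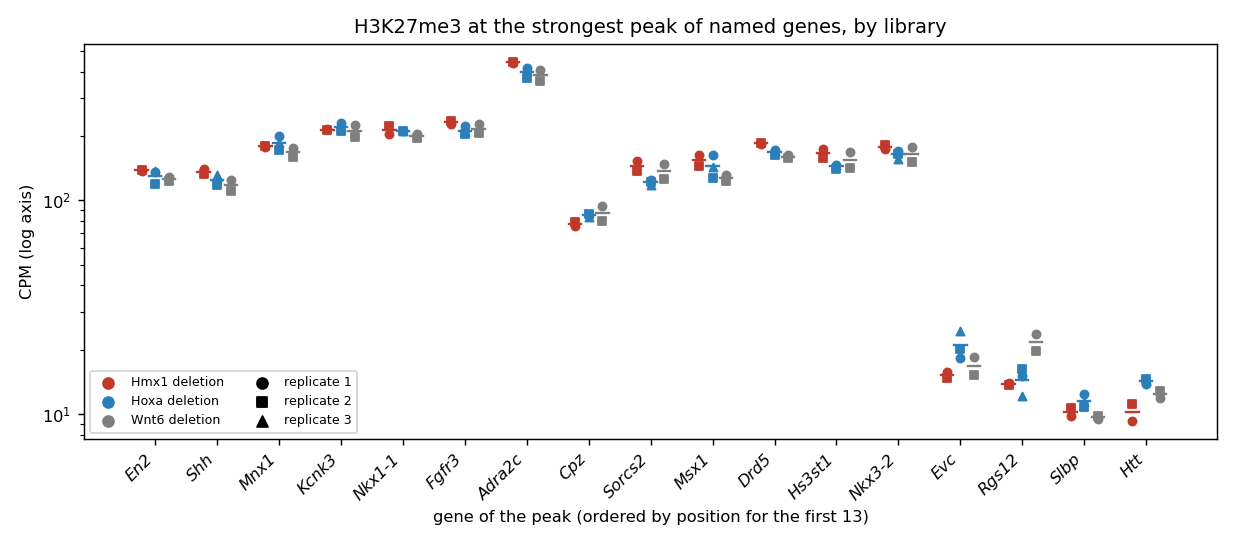
CPM in each library (log axis) at the strongest peak of 17 genes, with the Hmx1 (red), Hoxa (blue) and Wnt6 (grey) deletions side by side, short lines for group means and symbols for replicates. Adra2c stands highest at 362 to 444 CPM, and Evc, Rgs12, Slbp and Htt at 9.30 to 24.6 CPM.

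Broadly expressed genes served as a contrast with little mark. Of 14 such genes 13 had a peak, and Cenpa had none. Their strongest peaks had a median of 8.70 CPM, against 168 CPM for the homeobox genes and 107 CPM for the neuronal genes. Of 16 peaks 0 were called, and the median log2 fold change was -0.055. At an unadjusted p under 0.05, 1 was higher (5.58% of all peaks) and 1 lower (6.44% of all peaks). Htt, the huntingtin gene, held 9.30 and 11.1 CPM in the Hmx1 deletion, 13.9, 14.5 and 14.2 CPM in the Hoxa deletion, and 11.9 and 12.9 CPM in the Wnt6 deletion at 34760939 to 34762448. The Hmx1 deletion libraries were the lowest, with a log2 fold change of -0.35 (95% interval -0.65 to -0.043, edgeR adjusted p = 0.323). Lyar, a nucleolar protein gene whose peak also covers Zbtb49 (38220046 to 38220708), was the converse, with 7.27 and 4.96 CPM in the Hmx1 deletion, 3.17, 4.24 and 3.16 CPM in the Hoxa deletion, and 4.43 and 4.55 CPM in the Wnt6 deletion. Its log2 fold change was 0.51 (95% interval 0.071 to 0.96, adjusted p = 0.311). Slbp, which encodes the histone mRNA binding protein, had 9.80 and 10.7 CPM in the Hmx1 deletion, inside the range of 9.47 to 12.5 CPM of the others.

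The densest peaks, by mean CPM per kb, were named in each class of distance and side, and none of them was called. From 5 to 10 Mb on the lower side this was a peak 166 bp from Gm1979 (26006602 to 26007899), at 148 CPM per kb the densest of these. It held 222 and 186 CPM in the Hmx1 deletion, 199, 168 and 196 CPM in the Hoxa deletion, and 209 and 166 CPM in the Wnt6 deletion, with overlapping groups and a log2 fold change of 0.11 (95% interval -0.059 to 0.29). A second peak of Kcnk3 (30621509 to 30623191) held 163 and 158 CPM in the Hmx1 deletion, 157, 144 and 161 CPM in the Hoxa deletion, and 140 and 128 CPM in the Wnt6 deletion. Its groups overlapped through the Hoxa deletion, and the log2 fold change was 0.16 (95% interval -0.0009 to 0.33, edgeR adjusted p = 0.420). On the higher side Ppp2r2c, which encodes a regulatory subunit of protein phosphatase 2A, had 107.8 and 100.2 CPM in the Hmx1 deletion, 97.2, 92.6 and 92.2 CPM in the Hoxa deletion, and 100.8 and 85.3 CPM in the Wnt6 deletion at 36869416 to 36870436, 1.47 Mb away. The log2 fold change there was 0.15 (95% interval -0.022 to 0.33), and the Hmx1 deletion overlapped the Wnt6 deletion. The densest peaks of the other classes were those of Adra2c, Afap1 and Nkx3-2, already given, and one each beside Nkx1-1 (33438121 to 33438655) and inside Msx1 (37821094 to 37821655), with log2 fold changes of 0.18 and 0.087.

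The smallest p-values of the region belonged to peaks of modest change or low level. Mxd4, a gene of the MYC-antagonising MAX dimerisation family 1.19 Mb from the stretch, came first. Its promoter peak (34185423 to 34188293) held 61.7 and 56.2 CPM in the Hmx1 deletion, 67.1, 72.2 and 76.2 CPM in the Hoxa deletion, and 79.0 and 69.4 CPM in the Wnt6 deletion. The Hmx1 deletion libraries lay below all others, at a log2 fold change of -0.32 (95% interval -0.51 to -0.13) and an edgeR adjusted p of 0.0747. A peak inside Sorcs2, a sorting receptor gene of neurons, came next after Acox3 and had the most positive fold change. At 36284878 to 36285385, 883 kb from the stretch, it held 4.73 and 3.58 CPM in the Hmx1 deletion, 0.588, 2.37 and 1.87 CPM in the Hoxa deletion, and 2.37 and 2.40 CPM in the Wnt6 deletion. The groups did not overlap, the log2 fold change was 0.95 (95% interval 0.36 to 1.54), and the adjusted p of 0.0880 fell to 0.0426, with a log2 fold change of 1.15, when Hoxa deletion replicate 2 was left out.

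A log2 fold change beyond 1 in size was found at 6 of the 765 peaks, against 716 of all 74441 tested peaks. All 6 were negative and in the weak group, with mean levels of 0.605 to 1.66 CPM. They were inside Acox3 and Zfp513 and nearest to Cnpy1, Shh, Nkx1-1 and Clnk, named here for their size. Their edgeR adjusted p-values ran from 0.0794 to 0.418. At such levels the smallest library, with 6016500 counts, gives few counts for each peak.

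The strong group differed slightly in its median from the rest. Its median log2 fold change was 0.061, with 164 of 255 peaks above 0, against -0.0001 and -0.024 in the weak and intermediate groups. Peaks above the same level (7.99 CPM) had a median of 0.023 on other chromosomes (19382 peaks) and -0.0055 on chromosome 5 beyond 10 Mb (1023 peaks). Both Hmx1 deletion libraries lay above all others at 33 of the 255 peaks (12.9%, against 6.94% of all peaks) and below all at 15 (5.88%). Above the same level, both lay above all others at 9.56% of peaks on other chromosomes and 9.68% on chromosome 5 beyond 10 Mb, and below all at 10.02% and 11.2%. Neighbouring peaks share domains, so these counts are a description. Summed over genes, 52 genes with more than 50 CPM had log2 ratios of the Hmx1 deletion to the others between -0.32, at Gckr, and 0.22, at Afap1, with a median of 0.05.

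The comparison deletions gave a measure of how often unrelated deletions differ in this region. The Hoxa and Wnt6 deletions differed by a called change at 3 of the 765 peaks, against 1.23% of all peaks. The called peaks lay inside Sorcs2 (36323685 to 36323982), at Cd38 (43868827 to 43869333) and 726 kb from Hs3st1 (40371794 to 40372076), all at 2.85 CPM or less. Against the Hoxa deletion alone the Hmx1 deletion had 4 called peaks (1.79% of all peaks were called). Those inside Dpp6 (27059691 to 27060062) and Sorcs2 (36284878 to 36285385) were higher, and those inside Khk (30926586 to 30926884) and Zfp513 (31200254 to 31200592) lower. Against the Wnt6 deletion alone it had 0 (0.0887% of all peaks were called), and the adjusted p-values of these 4 peaks ran from 0.868 to 0.963 there. These comparisons share the Hmx1 deletion libraries, and each rests on 2 or 3 libraries a group.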

How the data were processed

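The series measured H3K27me3 by Cut&Tag in mESCs with a deletion at Hoxa, Wnt6 or Hmx1. The authors deposited raw counts over a shared list of 74458 peaks for 7 H3K27me3 libraries, with no normalization. Per the labels the build is mm10, and the submitters' processing notes name Bowtie2, Trimmomatic, SAMtools, Picard, MACS2 and deepTools without versions. Whether reads or fragments were counted, how duplicates were treated and from which libraries the peak list was made is not given in the sources used here. If it was called on part of the libraries, peaks strong in that part are favoured. The 7 IgG libraries were not analysed here. Positions are printed as deposited. The peaks, gene lists and classes were chosen with earlier results of these data known.

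Counts were analysed with edgeR 4.0.16 under R 4.3.3. Steps were filterByExpr by genotype, which removed 17 peaks, TMM factors, glmQLFit and glmQLFTest with a term for each genotype, and the contrast Hmx1 minus the mean of Hoxa and Wnt6. The F statistic gave the standard errors. CPM values use TMM factors, and log2 CPM a prior count of 2. Distance runs from the nearest end of a peak to the stretch. The stretch was the longest run of peaks with each Hmx1 deletion library at less than 10% of the other libraries' mean. Named peaks were the strongest peak over or within 5 kb of each gene of 4 lists (homeobox, signalling, neuronal, broadly expressed), the innermost peaks on each side, the peak with the highest CPM per kb in each class, and called peaks. Other peaks were named after their values were seen. Gene positions came from RefSeq (GRCm38.p6). DESeq2 1.42.0, other scalings, filters, comparison groups, windows, replicate blocks, downsampling and leaving out each library were the alternatives. The scripts were tested on simulated data. Totals per library were 6016500 to 36563541 counts, which limits precision at weak peaks, and intervals cover the spread between libraries. Plots were drawn with matplotlib.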

Additional observations from a re-analysis of the deposited data

How the results depend on the processing

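The absence of called peaks held under all scalings, filters and models of the other deletions that were run, with 4 calls against the Hoxa deletion alone, 1 call after downsampling every library to the smallest (36911674 to 36912046, log2 fold change -1.48, adjusted p = 0.0451, against -0.32 and 0.743 otherwise), and 60 peaks at an unadjusted p under 0.05. Leaving out single libraries gave 0 to 1 calls. The called peak was that inside Sorcs2, at 36284878, without Hoxa deletion replicate 2. All calls include the fold minimum. Without it, further peaks passed against the Hoxa deletion alone. Examples lay at Emilin1 and Khk (30920354 to 30921996, edgeR adjusted p = 0.00542) and beside Msx1 (37814148 to 37814742, edgeR adjusted p = 0.0146). Another lay beside Nkx1-1 (33426511 to 33426833, edgeR adjusted p = 0.0499). Against the Wnt6 deletion alone their edgeR adjusted p-values were 0.935, 0.927 and 0.867.

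The side medians are of the size of the scaling. On the lower side (0.0056) the median was -0.0344 with library totals alone, 0.0340 with chromosome medians removed, -0.0087 against the Hoxa deletion and 0.0241 against the Wnt6 deletion alone, 0.0233 after downsampling and -0.0074 within 5 Mb. On the higher side (0.0417) it was 0.0068 with library totals, 0.0694 with chromosome medians removed, 0.0958 against the Hoxa deletion and -0.0316 against the Wnt6 deletion alone, and 0.0693 from 0.2 Mb outward. The median at Nkx1-1 and Msx1 (0.0989) was 0.0485 with offsets that follow abundance. Without single libraries the medians ran from -0.0070 to 0.0340 (lower side), 0.0283 to 0.0706 (higher side) and 0.0365 to 0.1183 (Nkx1-1 and Msx1), lowest for the last without Hmx1 deletion replicate 2.

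The titles and the library descriptions number the replicates differently. Deviations of same-numbered libraries correlated at -0.042 to 0.083 by title and -0.114 to 0.061 by description. These correlations cannot decide whether the numbers pair the samples, because the 2 libraries of the Hmx1 or Wnt6 deletion deviate in mirror image. Library totals separated by title number, at 6016500 to 9982841 counts for replicate 1 and 25595584 to 36563541 for replicate 2. By description the totals overlapped, at 6016500 to 25595584 counts for number 3 and 15385487 to 36563541 for number 5. With a replicate block the calls stayed at 0 by either numbering, and the lower median was 0.02 by title.

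Of 800 values of 40 named peaks under alternatives, 46 changed sign without being called and 2 became calls, both at the Sorcs2 peak. Depth limits the weak peaks most, and the number of Hmx1 deletion libraries, 2, limits all.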
